A study of Mus musculus with 48 samples.

Results

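Ras is a membrane-bound switch that is active with GTP and inactive with GDP. Exchange factors such as Sos1 and Sos2 load it with GTP, and GTPase-activating proteins (GAPs) such as Nf1, Rasa1 and Rasa2 speed the return to GDP. Active Ras binds Raf kinases such as Braf, which start the MEK and ERK kinase cascade, and in mouse embryonic stem cells ERK activity favours the exit from pluripotency. The transcripts of these regulators were followed here after transcription was inhibited. The 8 genes are Nf1, Rasa1, Rasa2, Sos1, Sos2, Nras, Hras and Braf, chosen by name and matched from gene identifiers to mouse symbols, out of 23862 genes in the files. Of the 8, 7 had a value in all 48 libraries, and Hras had one in 28.

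All samples were mouse embryonic stem cells of the line E14TG2a, grown without feeders on gelatin in serum-containing medium with LIF, CHIR99021 (an inhibitor of the kinase GSK3) and PD0325901 (an inhibitor of MEK, the kinase below Raf). All also received 1 µM flavopiridol, an inhibitor of CDK9 that keeps paused RNA polymerase II from being released, and were harvested after 30, 60, 120 or 240 min. Polyadenylated RNA was sequenced from the whole extract (total), from the cytosol released by digitonin, from the membrane fraction released by a stronger detergent, and from the remaining nuclei, with 3 independently passaged replicates in each of the 16 groups. The samples had no untreated arm over time, and every value is a gene's ratio to its own 0 min level of that fraction, with 1 for no change. Libraries from 0 min are not analysed here.

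Between 15067 and 19501 genes had a value per library, and read depth is unknown. Of 8 markers of embryonic stem cells, 6 were listed in all 48 libraries, Zfp42 in 47 and Esrrb in 37. None of 10 markers of feeder, endoderm, neuroectoderm or mesoderm cells was listed in all libraries and 2 in none. However, Sox1 was listed in 47, T in 46, Col1a1 in 44, Thy1 in 43 and Gata6 in 42, each more often than Esrrb. Col1a2, Pax6 and Sox17 were listed in 12, 7 and 1. Listing thus does not separate these cell types. Ratios hold no level, so the share of other cells cannot be read from these files. The nuclear 30 min library of replicate 1 stood apart, with a median ratio of 0.555 against 0.934 and 0.805 in replicates 2 and 3, and results that rest on it are given with and without it. All 12 libraries of a fraction appear to be divided by a single 0 min value per gene, because quotients of values recurred as often between different replicates (a median of 62.1% of genes in the cytosol, 64.4% in the nucleus) as within one replicate series (62.2% and 64.5%). The error of that 0 min value is therefore in no SD or SE below. It enters each difference in ratio between nucleus and cytosol, but not a slope over time within a fraction.

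The genes differ widely in length and in their 3′ untranslated regions (3′UTRs), according to the GRCm38 annotation (GENCODE M21, the protein-coding isoform with the longest coding sequence). Nf1 (ENSMUSG00000020716) lies on chromosome 11 from 79339693 to 79581612 on the plus strand and spans 241.92 kb with 58 exons, longer than 96.6% of the protein-coding genes listed. Braf (ENSMUSG00000002413, chromosome 6, 39603237 to 39725463, minus strand) spans 122.227 kb. Sos2 (ENSMUSG00000034801, chromosome 12, 69583762 to 69681852, minus strand), Rasa2 (ENSMUSG00000032413, chromosome 9, 96539300 to 96631617, minus strand), Sos1 (ENSMUSG00000024241, chromosome 17, 80393751 to 80480453, minus strand) and Rasa1 (ENSMUSG00000021549, chromosome 13, 85214780 to 85289130, minus strand) lie between 74.351 and 98.091 kb. Nras (ENSMUSG00000027852, chromosome 3, 103058285 to 103067914, plus strand) spans 9.63 kb and Hras (ENSMUSG00000025499, chromosome 7, 141189105 to 141194005, minus strand) 4.901 kb.

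AU-rich elements in 3′UTRs are known sites for proteins that control mRNA decay, and their core letters were therefore searched for on the mRNA strand. The pentamer ATTTA occurred 27 times in the 3′UTR of Braf (7145 bases), 10 times in Sos1 (4430 bases), 8 times in Rasa1 (1324 bases), 7 times in Nf1 (3216 bases), 5 times each in Rasa2 (3145 bases) and Nras (3727 bases), once in Sos2 (270 bases) and not in Hras (2096 bases). Of the 13863 listed genes with an annotated 3′UTR, 64.2% held at least one. The longer form TATTTAT, which contains ATTTA, was found in Braf, Sos1 and Nf1. It was present in 26.6% of all 3′UTRs and in 63.5% of the 1730 that have at least 3000 bases, so its presence in these long 3′UTRs is common. The windows of Nf1 and Sos1, whose nuclear and cytosolic courses differ most below, are shown 5′ to 3′ with the 7 letters in capitals, together with the first window of Braf, whose courses differ less.
Nf1, chr11:79579702-79579724, plus strand: ttgaactaTATTTATttttaaaa
Sos1, chr17:80396568-80396590, minus strand: caactttgTATTTATtagcgagt
Sos1, chr17:80395215-80395237, minus strand: aaaagtggTATTTATcataatga
Braf, chr6:39609188-39609210, minus strand: atgacaatTATTTATacttttta
These matches describe the letters only, and no binding was measured.

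Nf1, which encodes neurofibromin, was, with the deposited scaling, the only one of the 7 genes whose nuclear ratio ended above its starting level. In the nucleus its ratios were 0.722, 1.15 and 0.702 at 30 min (replicates 1 to 3), 0.768, 0.807 and 1.06 at 60 min, 2.00, 1.96 and 1.66 at 120 min, and 1.26, 1.26 and 1.09 at 240 min. All 3 libraries at 120 min and all 3 at 240 min lay above 1, and those at 120 min lay above every other nuclear library. In the cytosol the ratios were 0.766, 0.900 and 0.923 at 30 min, 0.672, 0.645 and 0.759 at 60 min, 0.571, 0.570 and 0.515 at 120 min, and 0.310, 0.375 and 0.412 at 240 min. Here every library at a later time lay below every library at an earlier time. A nuclear rise to 1.88 ± 0.19 (SD, n = 3) at 120 min thus stood against a cytosolic ratio of 0.552 ± 0.032.

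**Figure D1:**
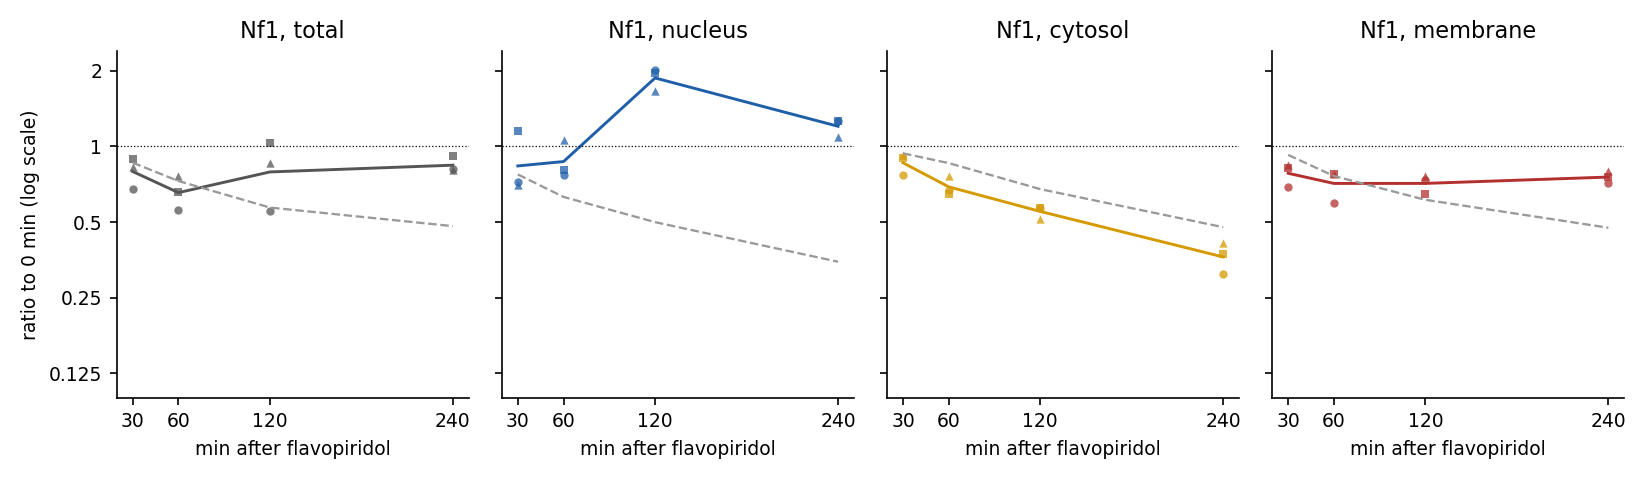
Nf1 ratio to 0 min (log scale) against min after flavopiridol in the 4 fractions, with points for the 3 replicates (circle 1, square 2, triangle 3), solid lines through the geometric means and a dashed line for the median of all genes. The nuclear points at 120 min lie between 1.66 and 2.00, while the cytosolic points fall to between 0.310 and 0.412 at 240 min and the membrane points at 240 min lie between 0.714 and 0.797.

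In the other fractions Nf1 had similar ratios at the first and the last time. Its membrane ratios were 0.692, 0.819 and 0.842 at 30 min and 0.714, 0.757 and 0.797 at 240 min. Its total ratios were 0.678, 0.889 and 0.831 at 30 min and 0.810, 0.916 and 0.804 at 240 min, and the 3 libraries at 120 min spread from 0.555 to 1.03. The groups at 30 and 240 min overlapped in both fractions.

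Each course was summarised in limma by a slope (log2 ratio per h), with p-values adjusted by Benjamini-Hochberg over all genes of the fit and a threshold of 0.05. In the cytosol all 7 genes tested fell, where 67.1% of 11979 genes fell and 2.95% rose. After centring of each library at its median gene, Nras and Braf had slopes above 0 (0.13 and 0.07 log2 per h). A centred slope is relative to the median gene, which itself fell as deposited, so a value above 0 can be a slower fall. When scaled to mRNAs encoded in mitochondria, Nras came to 0.01 (not called). In the nucleus 4 of 7 fell (61.9% of 13343 genes) and none rose (3.32%). In total RNA 5 fell (56.9% of 12762) and none rose (3.39%). The membrane fraction also had 5 that fell (62.2% of 12408) and none that rose (4.09%). Rasa1, Rasa2, Sos1 and Sos2 fell in all 4 fractions as deposited. With libraries centred, the nuclear calls of Rasa2, Sos1 and Sos2 were lost and 3 members were called higher in the nucleus (29.6% of all genes). This centring moved the median nuclear slope of all genes from -0.30 to 0.01. Scaling to mitochondrial mRNAs moved it to -0.11, and the median membrane slope from -0.26 to -0.48. Falls and rises below are therefore relative to the authors' scaling.

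**Figure D2:**
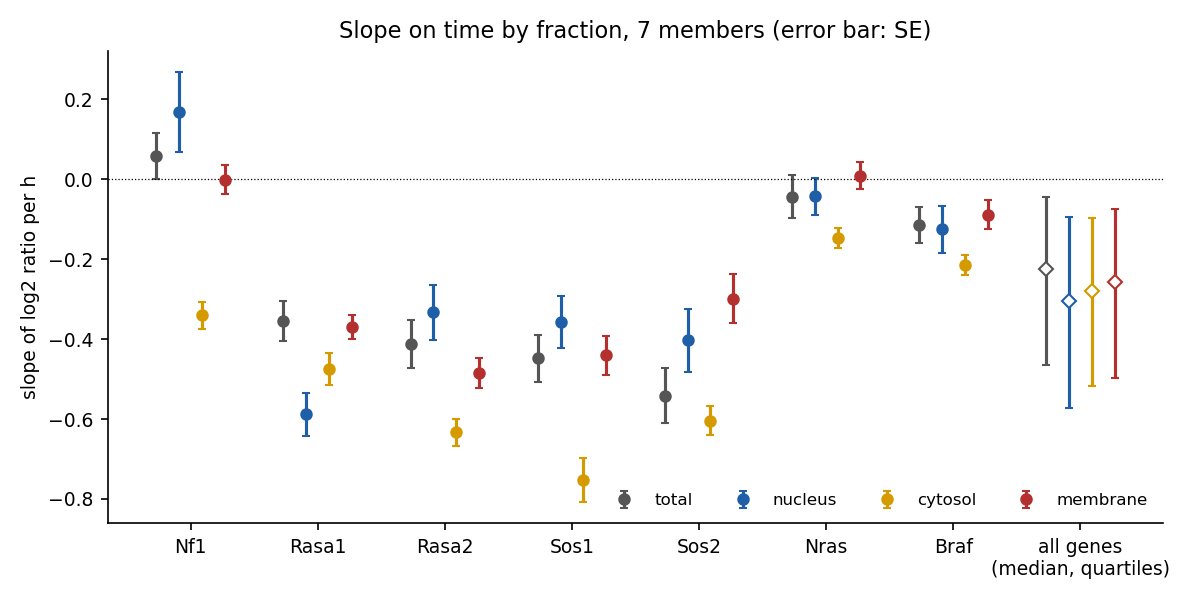
Slope of the log2 ratio per h (points) with its SE (bars) for 7 genes in 4 fractions, beside the median and quartiles of all genes of each fit (open diamonds). Nf1 has the highest nuclear slope, 0.17, and Sos1 the lowest cytosolic slope, -0.75, while the cytosolic slopes of Nras and Braf are below 0 as deposited but above 0 with libraries centred on their median gene.

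The nuclear slope of Nf1 was 0.17 ± 0.10 log2 per h (SE, adjusted p = 0.157) over a course that rose and then fell, and a test of any change over the 4 times called it (F test in limma, adjusted p = 0.00187). That F test called 5 of the 7 genes, against 63% of 13343 genes, and did not call Nras or Braf. Over 30, 60 and 120 min only, the nuclear slope of Nf1 was 0.82 (adjusted p = 0.00391). In the cytosol it was -0.34 ± 0.03, in total RNA 0.06 ± 0.06 (adjusted p = 0.408) and in the membrane fraction -0.0008 ± 0.036 (adjusted p = 0.987). Centring the libraries took the cytosolic slope to -0.06 (adjusted p = 0.129) and called Nf1 higher in the other 3 fractions, whereas the mitochondrial scaling gave -0.18 in the cytosol (adjusted p = 0.269), 0.36 for nuclear RNA (0.0196) and -0.23 for the membrane fraction (0.00348).

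The difference between the nuclear and the cytosolic slope was tested directly, as an interaction of time with fraction in 24 libraries. It was positive, a slower fall or a rise in the nucleus, for 3 of 7 genes (12.3% of 11232 genes), and no member was called in the other direction (8.3%). Nf1 had the largest difference, 0.51 ± 0.11 log2 per h (SE, adjusted p = 0.00245). Sos1 followed with 0.40 ± 0.08 (adjusted p = 0.00246) and Rasa2 with 0.30 ± 0.08 (adjusted p = 0.00876). The median over all genes was 0.03. Not called were Sos2 (0.20 ± 0.09, adjusted p = 0.102), Nras (0.10 ± 0.05, 0.148), Braf (0.09 ± 0.06, 0.335) and Rasa1 (-0.11 ± 0.07, 0.236). The call of Sos1 was lost without replicate 3 (adjusted p = 0.0725) and that of Rasa2 without replicate 2 or 3 (0.0565 and 0.113), whereas Nf1 stayed called without any one replicate. Scaled to the 7 mitochondrial mRNAs listed throughout, the differences were 0.54 for Nf1, 0.43 for Sos1 and 0.34 for Rasa2, and no member was called (adjusted p of at least 0.125). That scaling left 7 genes of the whole table called lower and 1 called higher. The paper reports a slight mitochondrial contamination of the nuclear fraction, gauged by transcripts encoded in mitochondria. It describes mitochondria as a main part of the membrane fraction. This scaling rests on mRNAs of the same kind, and how far carry-over moves it was not tested.

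**Figure D3:**
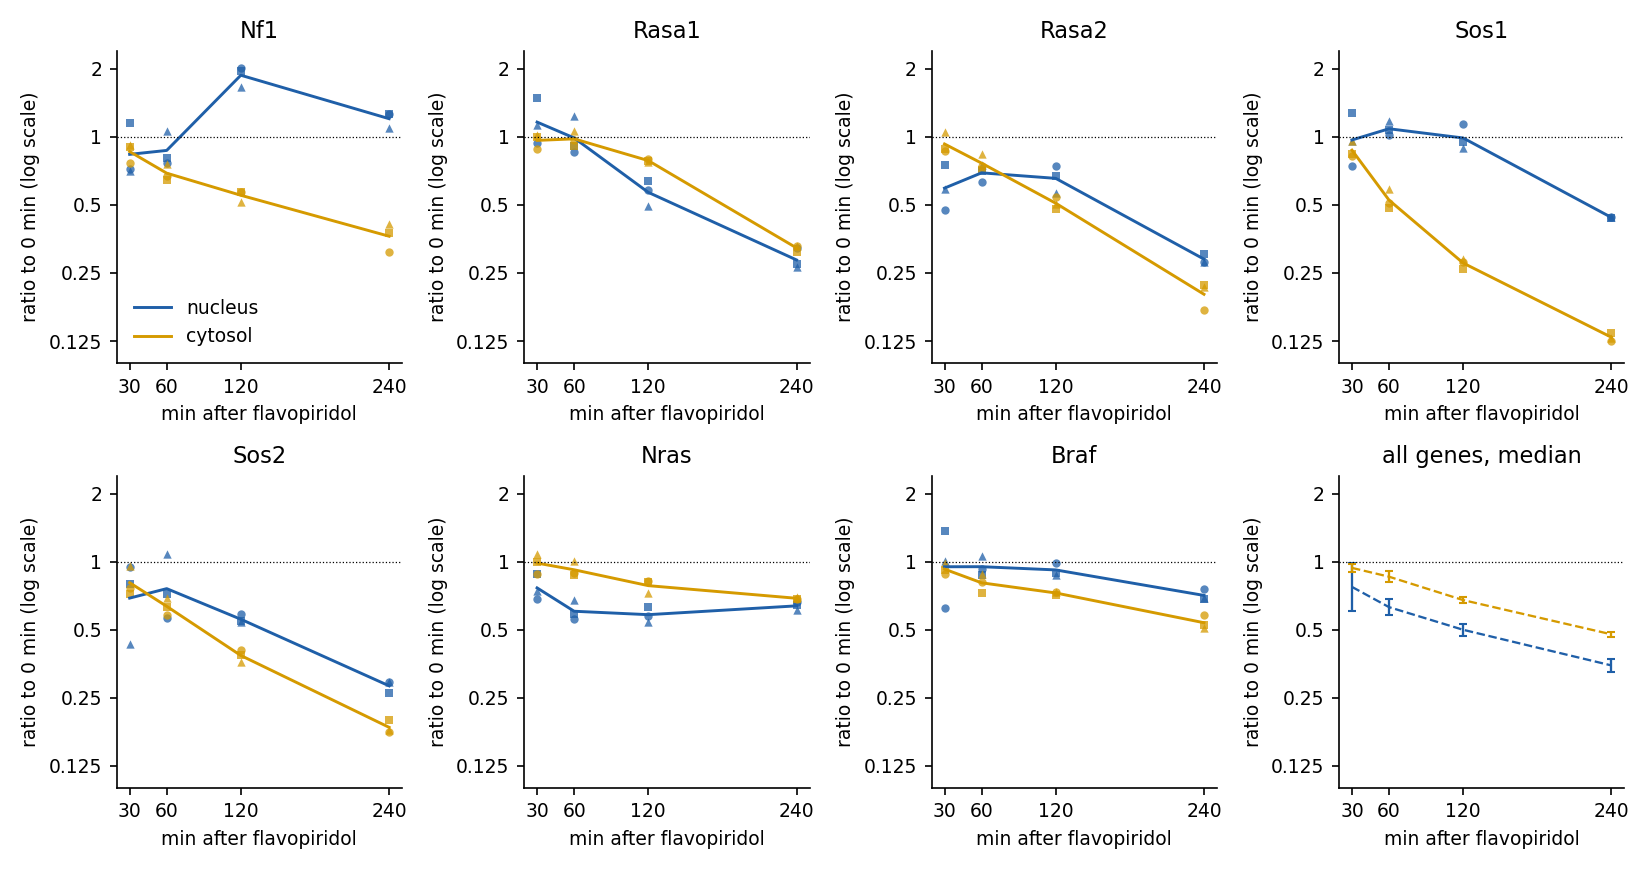
Ratio to 0 min (log scale) against min after flavopiridol in nucleus (blue) and cytosol (ochre) for 7 genes, with points for the 3 replicates (circle 1, square 2, triangle 3) and lines through the geometric means, and a last panel with the median of all genes (dashed) and its SD over replicates. The nuclear libraries of Nf1 and Sos1 lie above the cytosolic ones from 60 min on, and those of Nras lie below them at each time.

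Rasa1 and Rasa2 are the other GAPs of the set, Rasa1 being the p120 protein that binds activated receptors. Rasa2 had nuclear ratios of 0.474, 0.749 and 0.587 at 30 min and 0.744, 0.667 and 0.565 at 120 min, then 0.279, 0.305 and 0.281 at 240 min. Its cytosolic ratios were 0.864, 0.885 and 1.05 at 30 min, 0.543, 0.480 and 0.504 at 120 min and 0.171, 0.220 and 0.217 at 240 min. The cytosolic libraries were thus the higher ones at 30 min and the lower ones at 120 and 240 min, with no overlap at any of the 3 times. At 30 min cytosolic libraries lay wholly above nuclear ones for 30.2% of all genes and wholly below for 9.13%.

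Rasa1 was the one gene with a steeper slope in the nucleus (-0.59 ± 0.05) than in the cytosol (-0.47 ± 0.04), a difference that did not pass the test. Its nuclear ratios at 120 min were 0.582, 0.636 and 0.495, all below the cytosolic 0.798, 0.780 and 0.776. At 240 min the fractions overlapped, with 0.322, 0.273 and 0.265 in the nucleus and 0.329, 0.310 and 0.329 in the cytosol. Most of its cytosolic fall came after 120 min.

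The exchange factors Sos1 and Sos2, 2 related genes, shared a steep cytosolic fall. Sos1 had cytosolic ratios of 0.825, 0.839 and 0.960 at 30 min, 0.508, 0.487 and 0.585 at 60 min, 0.280, 0.261 and 0.289 at 120 min and 0.125, 0.136 and 0.129 at 240 min. Its nuclear ratios were 0.741, 1.27 and 0.960 at 30 min, 1.02, 1.07 and 1.18 at 60 min, 1.14, 0.949 and 0.891 at 120 min and 0.441, 0.435 and 0.443 at 240 min. The nuclear level of Sos1 thus stayed near its start up to 120 min, when the cytosolic level was at 0.277 ± 0.014 (SD, n = 3), and nuclear and cytosolic libraries did not overlap at 60, 120 or 240 min. At 60 min nuclear libraries lay wholly above cytosolic ones for 10.9% of all genes.

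Sos2 fell in both fractions, to 0.293, 0.263 and 0.293 in the nucleus and 0.177, 0.199 and 0.180 in the cytosol at 240 min. Its nuclear libraries at 30 min spread from 0.432 to 0.950, wider than those of the cytosol (0.718 to 0.955). They separated from the cytosolic ones at 120 and 240 min only. The cytosolic slopes of Sos1 and Sos2 were -0.75 ± 0.05 and -0.60 ± 0.04, and their nuclear slopes -0.36 ± 0.06 and -0.40 ± 0.08.

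Nras, a Ras GTPase, had the smallest cytosolic slope of the 7 genes as deposited, -0.15 ± 0.03 log2 per h, or 0.13 relative to the median gene with libraries centred. Its nuclear ratios were 0.682, 0.883 and 0.745 at 30 min, 0.556, 0.586 and 0.675 at 60 min, 0.576, 0.633 and 0.543 at 120 min and 0.661, 0.643 and 0.610 at 240 min. Its cytosolic ratios fell from 0.884, 0.999 and 1.08 at 30 min to 0.687, 0.685 and 0.694 at 240 min. The cytosolic libraries were above the nuclear ones at each of the 4 times, as they were for 44.9% of all genes at 60 min, and by 240 min the gap was small. In the membrane fraction Nras stayed near its start, with 0.942, 0.930 and 1.08 at 240 min.

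Hras, also a Ras GTPase, was listed in 6 of 12 total, 7 nuclear, 9 cytosolic and 6 membrane libraries, so no slope was fitted. Its listed values scattered, for example 1.60, 1.67 and 0.343 in the nucleus at 30 min, and 1.51 and 2.03 in the membrane fraction at 60 min in replicates 2 and 3. In the cytosol its values were 0.324 and 0.351 at 30 min, 0.547 and 0.548 at 120 min and 0.491 and 0.700 at 240 min. At 60 min replicates 1 and 3 were at 0.884 and 0.928, whereas replicate 2 was the lowest of the 9 cytosolic values. No total or membrane library at 240 min listed it, and a gene missing from a library may be at 0 there.

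Braf, the effector kinase, fell in the cytosol as deposited (-0.21 ± 0.02 log2 per h), with a slope of 0.07 relative to the median gene when libraries were centred. Its nuclear ratios were 0.624, 1.37 and 1.00 at 30 min and 0.754, 0.681 and 0.694 at 240 min, and its cytosolic ratios 0.878, 0.919 and 0.985 at 30 min and 0.579, 0.524 and 0.510 at 240 min. The fractions overlapped at 30 and 60 min and did not at 120 and 240 min. The nuclear slope was -0.13 ± 0.06 (adjusted p = 0.0786), and with the first replicate's nuclear library at 30 min left out it was -0.18 (adjusted p = 0.00253). The calls of Braf in total RNA (-0.11 ± 0.04, adjusted p = 0.0442) and in the membrane fraction (-0.09 ± 0.04, adjusted p = 0.0459) were close to the threshold. The call in total RNA was lost without replicate 2 or 3 (adjusted p = 0.142 and 0.283) and with the looser filter (0.0518), and that in the membrane fraction without any one replicate (0.0911 to 0.267).

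When the ratios of nucleus and cytosol were compared at each time in 1 fit, the members split. At 30 min Rasa2 (-0.65 ± 0.15 log2, adjusted p = 0.00475) and Nras (-0.36 ± 0.11, 0.0184) were lower in the nucleus (23.1% of 11232 genes) and none was higher (7.05%). The call of Nras was lost without any one replicate (adjusted p = 0.0613 to 0.193) and without the nuclear library of replicate 1 alone (-0.28, 0.0828), and that of Rasa2 without replicate 1 or 3 (0.0607 and 0.107). At 60 min Sos1 was higher (1.05 ± 0.15, adjusted p = 2.69e-05, with 7.03% of genes higher) and Nras lower (-0.61 ± 0.11, 0.000265, with 34.7% lower). At 120 min Nf1 (1.76 ± 0.17, adjusted p = 1.89e-07) and Sos1 (1.84 ± 0.15, 3.06e-08) were higher (14.9%), while Rasa1 (-0.47 ± 0.15, 0.0176) and Nras (-0.43 ± 0.11, 0.00354) were lower (33.4%). At 240 min Nf1 (1.73 ± 0.17, adjusted p = 1.43e-07), Sos1 (1.76 ± 0.15, 2.64e-08), Rasa2 (0.52 ± 0.15, 0.00819) and Sos2 (0.61 ± 0.23, 0.0328) were higher (21.6%) and none was lower (34.8%). The 240 min call of Rasa2 was lost without any one replicate and that of Sos2 without replicate 1 or 2. Rasa1 lost its call at 120 min without replicate 1 or 3. The medians over all genes were -0.24, -0.35, -0.24 and -0.19 at the 4 times.

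**Figure D4:**
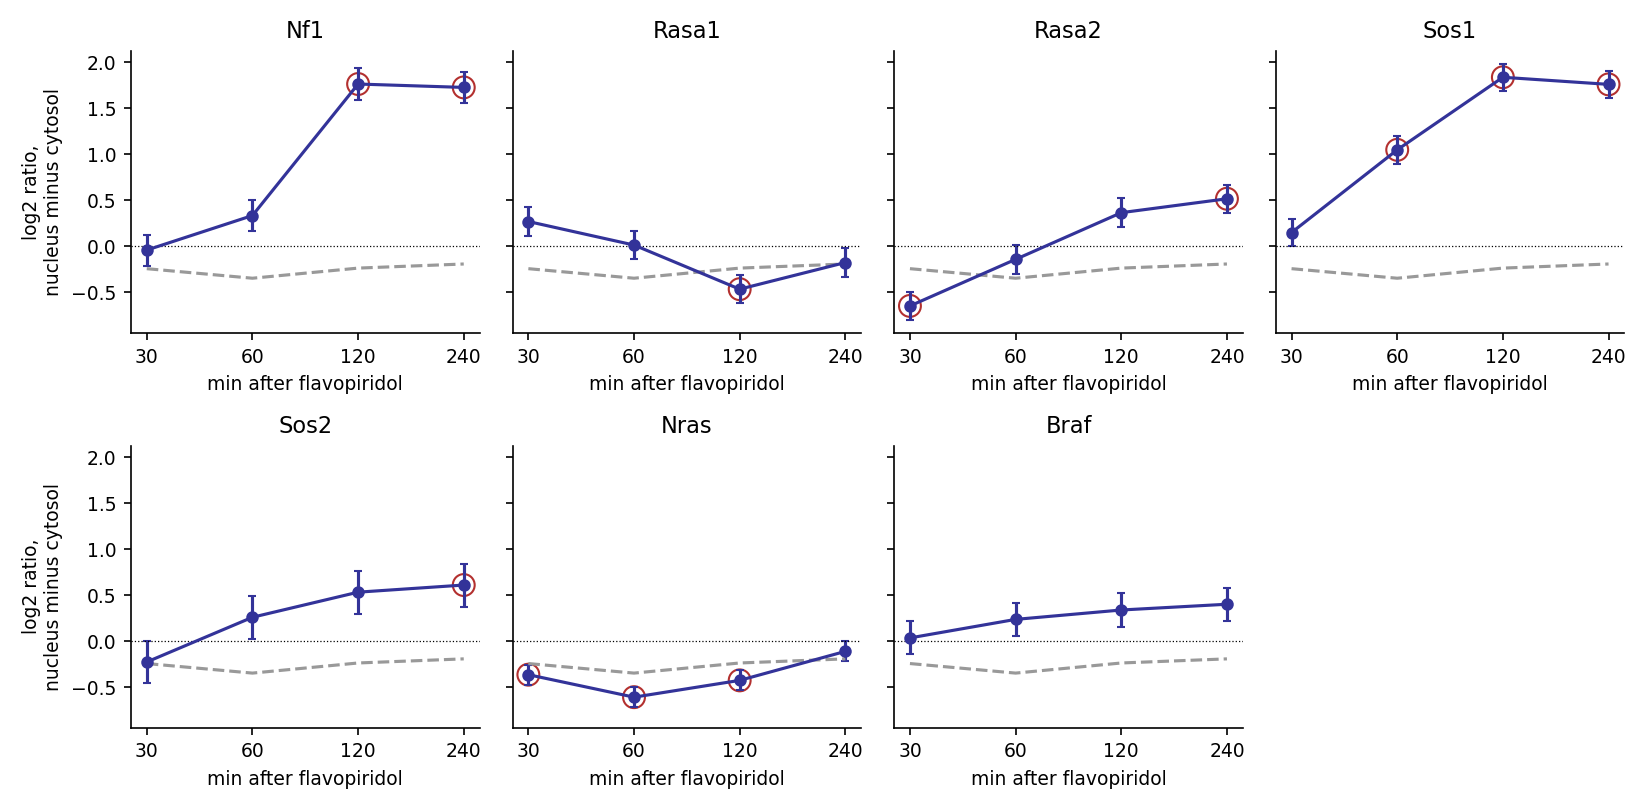
Log2 ratio in the nucleus minus that in the cytosol against min after flavopiridol for 7 genes, with the SE as bars, red circles around differences past an adjusted p of 0.05 in limma and a dashed line for the median of all genes. Nf1 reaches 1.76 and Sos1 1.84 at 120 min, where Nras is at -0.43, while under the mitochondrial scaling the differences of Nf1 and Sos1 at 120 min are 0.21 and 0.29, and those of Rasa2, Sos2 and Braf at 120 min turn negative.

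These differences in level carry the error of the 0 min values and depend on the scaling, as the slopes do. The mitochondrial scaling moved the median of all genes at 120 min from -0.24 to -1.79, and Nf1 and Sos1 then came to 0.21 (adjusted p = 0.488) and 0.29 (0.396) and lost their calls, but kept them at 240 min at 1.19 (0.00192) and 1.23 (0.00325). Under that scaling the median of all genes was -1.16, -0.70 and -0.72 at 30, 60 and 240 min. With libraries centred on the median gene Nras lost its calls at 30, 60 and 120 min and Rasa1 its call at 120 min. Counted by library, the 3 nuclear values lay wholly above the 3 cytosolic ones at 120 min for Nf1, Rasa2, Sos1, Sos2 and Braf, which is 5 of 7 genes (20.7% of all genes), and wholly below for Rasa1 and Nras (40.7%). At 240 min the same 5 genes lay wholly above (25.1%) and Nras wholly below (39%).

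Between the membrane fraction and the cytosol, the slope was higher in the membrane fraction for 4 of 7 genes (4.94% of 11086 genes) and lower for none (1.76%). Nf1 differed by 0.34 ± 0.05 log2 per h (adjusted p = 0.000109), Sos1 by 0.31 ± 0.07 (0.00766), Sos2 by 0.31 ± 0.07 (0.00857) and Nras by 0.16 ± 0.04 (0.0240). Rasa1, Rasa2 and Braf differed by 0.11 ± 0.05, 0.15 ± 0.05 and 0.13 ± 0.04 and did not pass (adjusted p = 0.247, 0.0621 and 0.0771). The calls of Sos1, Sos2 and Nras were lost when any one replicate was left out, and Nf1 stayed called, though not over 30, 60 and 120 min alone (0.34, adjusted p = 0.0953). With the mitochondrial scaling no member was called, Nf1 was at 0.05 and the differences of Rasa1, Rasa2, Nras and Braf turned negative. This comparison and that of nucleus with cytosol share the cytosolic libraries.

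The cytosolic fall was also described by a single exponential, with the error taken as the SD of half-lives from the 3 replicate series. The paper treats such fits as aggregated turnover, distinct from its rates of passage between compartments. These half-lives therefore also hold any supply from the nucleus and are not cytosolic stability alone. The cytosolic half-life was 55.6 ± 3.15 min for Sos1, 90.8 ± 19.0 min for Sos2, 98.7 ± 9.10 min for Rasa2, 154 ± 15.8 min for Rasa1, 165 ± 7.25 min for Nf1, 275 ± 65.9 min for Braf and 388 ± 135 min for Nras, with a median of 213 min over all genes. In this order the replicate series of Sos2 and Rasa2, of Rasa1 and Nf1, and of Braf and Nras overlapped, and those of the other neighbours did not. The SD does not cover the choice of scaling. The cytosolic half-life of Nf1 was 1031 min with libraries centred and 258 min with the mitochondrial scaling. The half-lives of Braf and Nras are longer than the 240 min followed and rest on the assumed form. Sos1 was shorter than all but 7.25% of genes. In the nucleus, half-lives were 94.9 ± 30.1 min for Rasa1, 160 ± 49.8 min for Sos2, 211 ± 99.7 min for Sos1 and 235 ± 90.8 min for Rasa2, and the replicate series of each gene overlapped those of the next in this order. These too rest on the assumed form, since nuclear Sos1 and Rasa2 did not fall steadily. Their mean ratios were 0.992 and 0.603 at 30 min and 0.993 and 0.659 at 120 min. Nuclear half-lives of Braf and Nras were 447 and 1118 min, with no finite value in replicate 1. No finite half-life was obtained for Nf1 in the nucleus or in total RNA.

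Gene length was set beside the courses. The median nuclear slope of protein-coding genes was -0.38 log2 per h under 10 kb (2447 genes), -0.36 from 10 to 30 kb (3246), -0.30 from 30 to 100 kb (2945) and -0.11 over 100 kb (1268), and the share of genes called higher was 11.6% in the longest class against 2.21% in the shortest. In the cytosol the medians were -0.31, -0.31, -0.31 and -0.20. The nuclear slope of Nf1 was above that of 84.0% of genes over 100 kb, and its difference from the cytosol above that of 97.0%. Braf, also over 100 kb, lay near the middle of that class in both, at 48.2% and 48.7%. Sos1 and Rasa2 had nuclear slopes near the middle of the class from 30 to 100 kb (42.5% and 45.1%) and low cytosolic ones (9.11% and 15.3%). Whether length plays a part in any single gene's course was not tested.

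**Figure D5:**
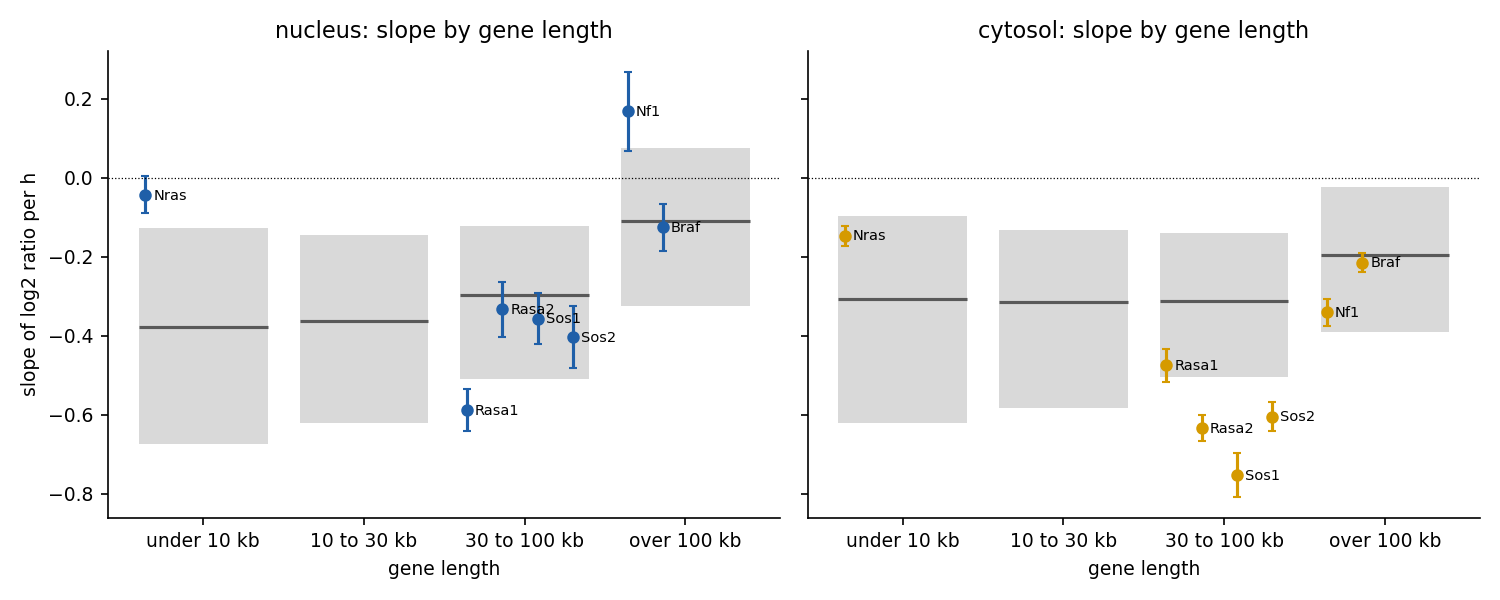
Slope of the log2 ratio per h in nucleus (left) and cytosol (right) by class of gene length, with grey boxes from the lower to the upper quartile of the protein-coding genes in each class, grey lines at the medians and points with SE for 7 genes. Nf1 lies above the upper quartile of genes over 100 kb in the nucleus and below their median in the cytosol, and Sos1, Sos2 and Rasa2 lie below the lower quartile of their class in the cytosol.

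Across the 16 combinations of fraction and time, the genes with courses most like that of Nf1 were Usp32, Nudcd2, Cbx3-ps6, Fnip1 and Dbt. Their root mean square difference from Nf1 in mean log2 ratio was 0.25, 0.26, 0.27, 0.27 and 0.28, against a median of 0.88 over 10694 genes listed in all libraries. Cbx3-ps6 is named as a pseudogene, so its reads may be shared with related genes. Their nuclear ratios (geometric means) at 120 min lay between 1.21 and 1.58, and their lengths ran from 0.552 kb to 155.72 kb. Of the Ras regulators, Braf was the closest at 0.41 and Sos1 the farthest at 1.01.

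The wider Ras pathway was taken from a list of 50 other genes, of which 42 were listed in some library and 27 in all. In the nucleus 21 of 28 tested genes fell and 2 rose as deposited, beside 61.9% and 3.32% of all genes. With libraries centred 5 were called lower and 10 higher than the median gene, beside 29.2% and 29.6% of all genes. With the mitochondrial scaling 2 fell and 2 rose, beside 21% and 4.23%. Those that rose as deposited were Ksr2, a scaffold for Raf and MEK (0.45 ± 0.09 log2 per h, adjusted p = 0.000720), and Plce1, a phospholipase that Ras activates (0.33 ± 0.14, 0.0436). With the replicate block 1 gene of the list rose (3.01% of all genes). Without any one replicate it was also 1 gene (1.96% to 2.47%). Among those that fell were Spred2 and Spred1, inhibitors that bring neurofibromin to the membrane (-0.67 ± 0.06 and -0.68 ± 0.06). In the cytosol 21 of 29 fell and none rose (67.1% and 2.95% of all genes). With libraries centred 11 were called lower and 10 higher than the median gene (32.4% and 29.4%). Those that fell as deposited included Cbl, a ubiquitin ligase of activated receptors (-0.52 ± 0.03), Spred1 (-0.54 ± 0.03) and Pde6d, a carrier of lipid-modified Ras (-0.41 ± 0.02). Total RNA held 17 of 27 that fell and 1 that rose (56.9% and 3.39% of all genes), and the membrane fraction 18 of 28 and 2 (62.2% and 4.09%). The median slope of the list was -0.31 in the nucleus and -0.31 in the cytosol, beside -0.30 and -0.28 over all genes.

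For the difference between nuclear and cytosolic slopes, 7 of 28 pathway genes were higher and 3 were lower (12.3% and 8.3% of all genes), with a median of 0.02 beside 0.03 over all genes. Without replicate 1, 2 or 3 the higher ones numbered 4, 4 and 2, beside 4.71%, 5.79% and 2.73% of all genes. The lower ones then numbered 3, 2 and 0, beside 5.9%, 2.74% and 1.66%. With libraries centred 8 were higher and 3 lower, beside 17.1% and 10.1% of all genes. With the mitochondrial scaling none was called, beside 0.0089% of all genes higher and 0.0623% lower. Among the higher ones were the GAP Rasal2 (0.48 ± 0.07, adjusted p = 0.000153), the MEK family member Map2k2 (0.41 ± 0.07, 0.000303) and the scaffold Ksr1 (0.44 ± 0.11, 0.00552). Lower were Araf, a Raf kinase (-0.45 ± 0.08, adjusted p = 0.000566), Rgl2, an exchange factor that binds active Ras (-0.35 ± 0.07, 0.00108), and the adaptor Shc1 (-0.42 ± 0.13, 0.0273). Between membrane fraction and cytosol 4 of 27 were higher, including Rasal2 (0.40 ± 0.06, adjusted p = 0.000279), and Araf was lower (-0.19 ± 0.05, 0.0303).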

How the data were processed

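Each deposited file holds 1 value per gene for 1 of 48 libraries of polyadenylated RNA made with a stranded kit. Reads were aligned by the authors with STAR 2.7.6 to mm10 and quantified with RSEM 1.3.3, libraries were scaled on genes of known long half-life, and values were divided by the 0 min level. The deposited unit is thus a ratio, although the heading names normalized read counts. Genes at 0 are not listed. Depth is not given, so there are no counting intervals. Groups came from the titles, which put the last time at 240 min where the protocol text has 180 min.

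Slopes, slope differences and group contrasts of log2 ratios, with no pseudocount, came from limma 3.58.1 (R 4.3.3) with a trended prior, genes listed in every library of a fit, two-sided tests and Benjamini-Hochberg adjustment over all those genes. Half-lives came from least squares of an exponential with a free start (scipy 1.17.1, Python 3.11.15). Of 23862 identifiers 23786 matched a symbol. The members, gene lists and the rule for genes most like Nf1 (the 5 smallest root mean square differences, skipping predicted genes) were chosen with earlier results of these data known, and pathway genes were named by smallest adjusted p, with some of them not reported here. In simulated data with independent noise, 64.5% of 200 genes with a slope of 0.5 were recovered for the nuclear slope (13343 genes) and 68.5% for the difference between nucleus and cytosol (11232 genes). False calls numbered 11 and 9. No other gene changed there, while many more did in these data, so the recovery need not carry over. The alternatives were a pseudocount of 0.1, a looser filter on listing, centring on the median gene, scaling to mitochondrial mRNAs, blocks for replicate or harvest, an untrended prior, omission of each replicate or of 1 nuclear library, a shorter window and 180 min as the last time.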

Additional observations from a re-analysis of the deposited data

Results flagged for a closer look

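The slope over time differed between fractions by a direct test (interaction in limma, adjusted over all genes) for 7 pairs of gene and comparison. Between nucleus and cytosol the difference was 0.51 log2 per h for Nf1, 0.40 for Sos1 and 0.30 for Rasa2, each a higher slope in the nucleus. Between membrane fraction and cytosol it was 0.34 for Nf1, 0.31 for Sos1, 0.31 for Sos2 and 0.16 for Nras, each a higher slope in the membrane fraction. Of the genes called in both comparisons, Nf1 kept both calls with any one replicate left out and Sos1 did not, and with scaling to mitochondrial mRNAs none of the 7 was called.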

How the results depend on the processing

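Scaling moved the results most. Centring on the median gene reversed the sign of 13 of 70 single values and the mitochondrial scaling of 21, the pseudocount, looser filter and untrended prior of none. Centred values are relative to the median gene. Centred, members called higher were 3 in total RNA, and members called lower and higher were 1 and 3 for nuclear slopes, 4 and 2 for cytosolic, 3 and 3 for membrane slopes, and, for nucleus minus cytosol, 1 and 3 at 30 min, 0 and 6 at 60 min and 0 and 5 at 120 min. Of all genes, centring gave 28.8% higher slopes in total RNA. It gave 29.2% lower and 29.6% higher nuclear slopes, 32.4% and 29.4% cytosolic and 30.9% and 28.3% membrane slopes. Level differences at those times were lower for 14.5%, 17.6% and 22.5% of all genes and higher for 19.5%, 24.6% and 33%. Reversed slopes when centred were Nras 0.19 (total), 0.27 (nucleus) and 0.13 (cytosol), Braf 0.12 (total), 0.19 (nucleus), 0.067 (cytosol) and 0.17 (membrane), and Nf1 0.26 (membrane), and reversed level differences were Nf1 0.22 and Sos2 0.036 at 30 min, Rasa2 0.28 at 60 min, and Rasa1 0.19 and Nras 0.26 at 240 min.

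With the mitochondrial scaling 1 nuclear slope was lower and 1 higher (21% and 4.23% of all genes), and 4 cytosolic slopes were lower (27.3%). No member had a higher slope difference between nucleus and cytosol (0.0089%) or between membrane fraction and cytosol (0.018%). The F test called 3, and its share over all genes was not computed under this scaling. Level differences called were 6 lower at 30 min (73.4% of all genes), 0 higher at 60 min (0.605%) and 5 lower at 120 min (88.8%). At 120 min 0 were higher (0.151%), and 2 were higher at 240 min (3.61%). Reversed slopes were Nf1 -0.062 (total), Nras 0.15 (nucleus), 0.011 (cytosol) and -0.22 (membrane) and Braf 0.067 (nucleus), and for membrane minus cytosol Rasa1 -0.19, Rasa2 -0.15, Nras -0.14 and Braf -0.17. Reversed level differences were Rasa1 -0.65, Sos1 -0.77 and Braf -0.88 at 30 min, Nf1 -0.020, Rasa1 -0.34, Sos2 -0.095 and Braf -0.12 at 60 min, Rasa2 -1.19, Sos2 -1.02 and Braf -1.21 at 120 min, and Rasa2 -0.015 and Braf -0.13 at 240 min. The cause was not tested.

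Over 30 to 120 min, 3 members were lower in total RNA (50.4% of all genes) and 1 lower and 1 higher in the nucleus (39.6% and 1.54%). For membrane minus cytosol 1 was higher (1.89%). Reversed were Rasa2 0.070 (nucleus), Nras -0.16 (membrane), Nras -0.0093 (nucleus minus cytosol) and Rasa1 -0.13 (membrane minus cytosol). With 180 min as last time Nras in the membrane fraction was at -0.0073. Omitting the nuclear 30 min library of replicate 1 left 1 member lower at 30 min (13.2% of all genes) and there gave Nf1 0.064, Sos1 0.34 and Braf 0.34.

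With each replicate left out in turn, counts were 1 to 3 higher for nucleus minus cytosol slopes (2.73% to 5.79% of all genes). For membrane minus cytosol they were 1 to 1 (1.05% to 1.93%). For level differences they were 0 to 1 lower at 30 min (6.9% to 15.4%) and 1 to 2 lower at 120 min (22.2% to 29.9%). At 240 min 2 to 3 were higher (15.4% to 17.7%). Calls at 240 min were lost for Rasa2 without any one replicate and for Sos2 without replicate 1 or 2, and Rasa1 at 120 min without replicate 1 or 3. Values that turned, none called, ranged for the membrane slopes from -0.021 to 0.014 (Nf1) and -0.013 to 0.025 (Nras), at 30 min from -0.077 to 0.30 (Sos1), -0.23 to 0.30 (Braf), -0.24 to 0.14 (Nf1) and -0.49 to 0.23 (Sos2), and at 60 min from -0.088 to 0.10 (Rasa1).

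In the paper's protocol the fractions of a harvest come from the same cells. The replicate numbers were not taken to pair the samples in the main tests, since not every correlation of deviations was over 0.1. Those tests thus treat the fractions as independent. The correlations ran from -0.10 to 0.06 between nucleus and cytosol of a harvest (0 of 12 over 0.1), from 0.03 to 0.17 between membrane fraction and cytosol (1 of 12, all positive) and from -0.03 to 0.27 between times in total RNA (4 of 18 over 0.1, mostly replicate 1). The replicate block changed 1 of 70 member calls, Braf in the membrane fraction (-0.09, adjusted p = 0.0639). A harvest block, chosen after seeing the data, gained Rasa2 for membrane minus cytosol (0.0290) and Braf at 240 min (0.0482) and lost Sos2 at 240 min (0.0547). Of 28 half-lives 3 were not finite, and of 200 alternative values for the others 103 moved by over 1 SD or had no SD. Depth is unknown for every library.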
